A study of Homo sapiens with 30 samples.

Results

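The genes described here are the transferrin receptor TFRC and 9 further genes of cellular iron handling, namely STEAP3, SLC11A2, FTH1, FTL, NCOA4, SLC40A1, IREB2, ACO1 and SLC25A37. They were found by their gene names in the array files, which gave 18 probes for the 10 genes, of 32099 probes and 24517 gene names that could be tested. All 18 probes passed the filter on dim probes. TFRC was chosen by its measured signal, lower in pollen than in mock at 2h25 min, so its values at that time are a description and carry no test. The other 9 were chosen for what they are known to do, though with earlier results of these data known. The cells are BEAS-2B, an immortalized human bronchial epithelial line, kept with their upper side in air on a porous membrane. They received 10 mg of whole birch pollen by sedimentation, or a mock exposure, labelled air, in which a mesh kept the pollen off the cells. RNA was taken at 5 times, the early ones 10 min and 55 min, then 2h25 min and 6h50 min, and last 24 h, with 3 arrays for each of the 10 groups. All groups are 1 cell line in 1 medium, so they stand for no donor and no differentiated airway.

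Cells take up iron mainly as transferrin, a serum protein that carries ferric iron and binds the transferrin receptor at the cell surface. In the endosome STEAP3 reduces the iron and SLC11A2, also called DMT1, moves it into the cytosol. What is not used is stored in ferritin, a shell of heavy (FTH1) and light (FTL) chains that NCOA4 delivers to the lysosome when iron is needed, and SLC40A1, ferroportin, is the known exporter of iron. SLC25A37, mitoferrin, carries iron into mitochondria for haem and iron-sulphur clusters. The iron regulatory proteins ACO1 and IREB2 bind hairpins in messenger RNAs, the iron-responsive elements, when iron is scarce. Bound near the start of the ferritin and ferroportin messengers they block translation, and bound near the end of the TFRC messenger they protect it from decay. A change of ferritin protein therefore need not show in its messenger, while TFRC messenger is a common readout of iron supply and also of growth signals.

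Sequences are shown for the places that the TFRC and ferritin results refer to. The TFRC probe lies at chr3:195776593-195776652 on the minus strand of hg19, and each of its 3 reading frames holds a stop codon. Of the 10 genes 8 have an entry among the RefSeq promoter windows of GRCh38.p14, where FTH1 and SLC25A37 are not listed. The 250 bases before the TFRC start site are printed because most of the results concern this gene, at chr3:196082091-196082340 on the minus strand, with capitals for a TATA box core, GC boxes on either strand and a hypoxia element core.
TFRC upstream: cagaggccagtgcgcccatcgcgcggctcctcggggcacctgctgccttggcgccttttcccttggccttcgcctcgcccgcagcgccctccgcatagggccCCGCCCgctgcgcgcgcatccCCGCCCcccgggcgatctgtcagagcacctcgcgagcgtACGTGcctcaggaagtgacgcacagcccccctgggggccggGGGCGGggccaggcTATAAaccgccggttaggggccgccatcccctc
TATAA, the core of a TATA box, begins 33 bases before the start site. ACGTG, the core of the hypoxia element, begins 88 bases before it. GGGCGG, the GC box, begins 47 bases before it, and its complement begins at 148 and 127 bases before it. Read on both strands of all windows of this length, TATAA was in 18.9%, ACGTG in 18.5% and GGGCGG in 42.6%. The AP-1 motif TGACTCA, in 4.2% of the windows, was not found in that of TFRC. A match of letters is a description, not a site of binding.

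The FTL messenger begins with the iron-responsive element, of which the stretch from base 22 to base 50 after the start site lies in the window, at chr19:48965330-48965358 on the plus strand of GRCh38.p14, with the loop CAGTGT in capitals.
FTL element: tctgtctcttgcttcaaCAGTGTttggac
Among all windows 1.24% hold CAGTGT in the 50 bases after the start site. Ferritin probes need care, since both chains are related to each other and have pseudogene copies. The probe A_19_P00812340 of FTL, at chr19:49469860-49469919 on the plus strand of hg19, and the probe A_24_P58337 of FTH1, at chr11:61732276-61732335 on the minus strand, read matching stretches of the 2 coding sequences. Capitals mark bases that are the same in the best match without gaps.
A_19_P00812340: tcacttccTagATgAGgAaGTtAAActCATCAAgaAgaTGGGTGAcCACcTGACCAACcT
A_24_P58337: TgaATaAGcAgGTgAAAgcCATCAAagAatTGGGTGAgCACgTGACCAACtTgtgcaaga
They share 37 of 52 aligned bases, 71.2%. Transcripts of ferritin pseudogenes could also reach these probes, so the ferritin values are those of the probes.

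The arrays are one-colour Agilent arrays. All values are log2 signals minus the 75th percentile of the array over probes on both array designs, so 0 is the brightness of that percentile and 1 unit is a 2-fold difference. Levels of different probes cannot be set against each other. On single arrays 44.7% to 62.6% of probes exceeded the scanner software's background test and 0 were saturated, and the precision rests on 3 arrays per group. Of the 10 airway epithelial markers 9 passed that background test on all 30 arrays and TP63 on 21, while PECAM1, COL3A1, LUM, PDGFRA and HBB were on 0. Replicate 1 of pollen at 55 min was hybridized to another array design than the other 29 arrays. Each of the 5 slides was scanned apart. The 6h50 min arrays fill a slide of their own, so in comparisons of 6h50 min with other times slide and time cannot be told apart, while pollen and mock at 6h50 min share the slide. All 10 min arrays lie on 1 slide, which holds 1 mock array and no pollen array of 55 min. All 24 h arrays lie on another, with 1 array of each condition from 2h25 min. Slide and time are thus largely mixed in comparisons of 10 min or 24 h with other times too.

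TFRC was lower after pollen at 2h25 min and at 6h50 min and overlapped mock before and after. At 10 min the 3 mock arrays gave 0.33, 0.04 and 0.21 and the 3 pollen arrays 0.21, 0.11 and 0.31. At 55 min mock gave 0.71, 0.65 and 0.42 and pollen 0.95, 0.41 and 0.15. The groups overlapped at both times, and the pollen array with 0.95 is the one of the other design.

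At 2h25 min mock gave 0.58, 0.62 and 0.29 and pollen −0.19, −0.33 and −0.66. At 6h50 min mock gave 0.05, 0.33 and 0.39 and pollen −0.54, −0.63 and −0.43. The groups did not overlap at either time, and the difference at 2h25 min is the one that chose the gene. At 24 h mock gave 1.71, 1.45 and 0.90 and pollen 1.51, 1.37 and 1.08, so that the groups overlapped again. All 6 arrays of 24 h were above every mock array of the earlier times, and the lowest of them, 0.90, was below 1 earlier pollen array, that with 0.95. The array carries TFRC 10 times, and the SD between these spots within an array, which holds technical noise alone, was between 0.027 and 0.069.

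**Figure D1:**
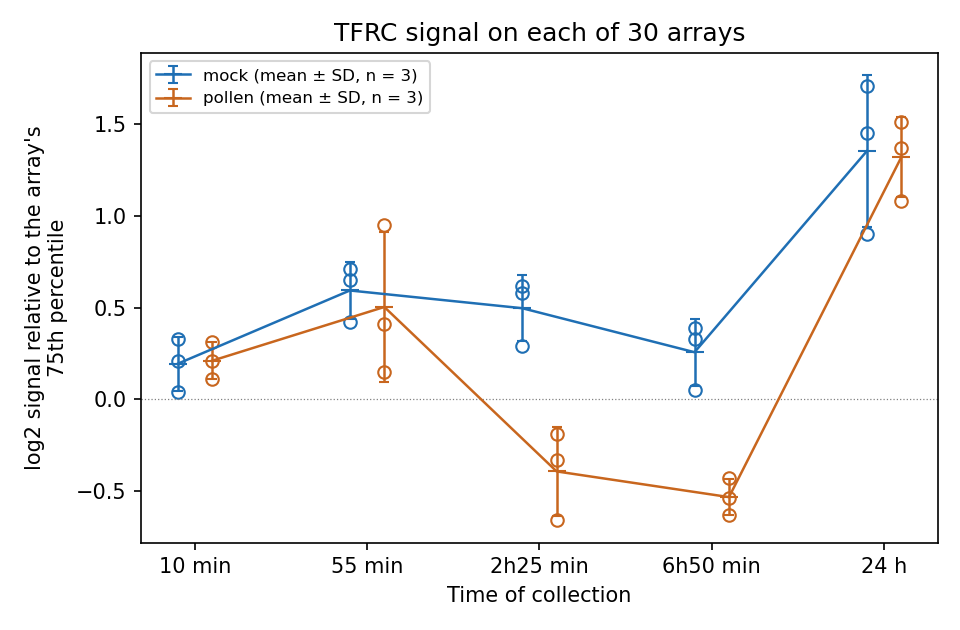
The plot of TFRC by array has the time of collection on the horizontal axis and the log2 signal relative to the 75th percentile of the array on the vertical axis, with a circle per array and the mean ± SD of 3 arrays per group. Pollen lies at −0.39 ± 0.24 at 2h25 min and −0.53 ± 0.10 at 6h50 min, below mock at 0.50 ± 0.18 and 0.26 ± 0.18, and both conditions reach 1.35 ± 0.41 (mock) and 1.32 ± 0.22 (pollen) at 24 h.

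The mean difference between pollen and mock at 2h25 min was −0.89 (SE 0.19), 1.86-fold lower, and it chose the gene. It was −0.86 among the arrays of 1 slide, 2 per group, and −0.95 between the pair on another slide. At 6h50 min, which did not choose it, TFRC was lower by −0.79 (SE 0.19), 1.73-fold, with an adjusted p from limma of 0.124 over all tested probes. It was thus not called, since a call needs 1.1-fold or more together with an adjusted p below 0.05. An exact two-sided permutation test of the 3 against 3 arrays gave p = 0.1, the smallest that this design allows. At this time 0.0436% of all probes were called, 14 of 32099. TFRC passed the threshold in 3 of 15 other ways of fitting, with adjusted p between 0.00968 and 0.446 over all 15. The number of all probes called at this time depended on the fit. In those 3 ways it was 530 with array weights, 386 with the deposited table and 135 with the replicate block. Beside this, the summed signal of the 3 leukocyte markers PTPRC, CD14 and CD3E was 0.775 to 0.925 of the 75th percentile in pollen and 0.531 to 0.585 in mock at 6h50 min, with PTPRC and CD14 above background on all 30 arrays and CD3E on 17. At 24 h this sum was also higher in pollen, 0.749 to 0.769 against 0.601 to 0.648 in mock. At 2h25 min it overlapped, with 0.779 to 1.29 in pollen and 0.658 to 1.04 in mock, as it did at 10 min and 55 min. The part of these markers in the TFRC result was not tested. In RNA from whole cultures, fewer cells with the messenger and less of it per cell cannot be told apart.

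At the other times the TFRC difference between pollen and mock was 0.01 at 10 min, −0.09 at 55 min and −0.04 at 24 h, each with an SE of 0.19. In limma the adjusted p was 1 at 10 min, 0.998 at 55 min and 1 at 24 h. Among the 55 min arrays of a shared slide, 2 of each condition, the difference was −0.26. The effect of pollen on TFRC at 24 h minus that at 6h50 min was 0.75 (SE 0.27), with an adjusted p of 0.882 in limma, so this return to the mock level did not pass the test over all probes. From 10 min to 55 min TFRC differed by 0.40 (SE 0.19, adjusted p = 0.461) in mock and by 0.29 (SE 0.19, adjusted p = 0.505) in pollen, and neither passed in limma. Slide and time are largely mixed in this step. On the slide with the 10 min arrays, the 1 mock array of 55 min was higher by 0.51.

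From 6h50 min to 24 h TFRC rose in both conditions. In mock the rise was 1.1 (SE 0.19, 2.14-fold, limma adjusted p = 0.000137) and in pollen 1.85 (SE 0.19, 3.6-fold, limma adjusted p = 7.32e-07). Many genes moved between these times, since 40.5% of all probes were called in mock and 36.2% in pollen. Probes called higher made up 24.7% in mock and 21.8% in pollen. Because of the separate slide of 6h50 min, the 24 h arrays were also set against 2h25 min, a comparison chosen after the data were seen. TFRC was then higher at 24 h by 0.86 in mock and by 1.71 in pollen, given without a test since the 2h25 min arrays chose it. On the slide that holds all 24 h arrays and 1 array of each condition from 2h25 min, the difference was 1.06 in mock and 1.98 in pollen. The summed signal of the 10 airway epithelial markers was 143 to 190 times the 75th percentile at 24 h and 222 to 340 times it at all earlier times, and its part in the rise was not tested.

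The 10 group means of TFRC ran from −0.53 in pollen at 6h50 min to 1.35 in mock at 24 h. Going down the order, mock and pollen at 24 h overlapped each other, and pollen at 24 h stood clear of all earlier groups, while mock at 24 h, with its lowest array at 0.90, overlapped 1 of them, pollen at 55 min. Below them came mock and pollen at 55 min, mock at 2h25 min, mock at 6h50 min and pollen and mock at 10 min, each overlapping its neighbour. Pollen at 2h25 min and pollen at 6h50 min stood below without overlap with the group above them, and overlapped each other.

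Over the 10 group means, and among 14617 genes with a probe on both designs above background on every array, the course of FRZB was most like that of TFRC, with a Pearson correlation of 0.968. It was followed by ZFPM1 at 0.944, PDPR at 0.943, AKT1 at 0.94 and KLHL26 at 0.938. The most opposite courses were those of NR1D2 at −0.955, PARVA at −0.949 and SFN at −0.943. Over the 30 single arrays the correlation was 0.716 for FRZB, 0.574 for ZFPM1, 0.777 for PDPR, 0.637 for AKT1, 0.817 for KLHL26, −0.559 for NR1D2, −0.87 for PARVA and −0.543 for SFN. These are descriptions, and the points share slides and times. None of the other members was among the most similar genes. FTL came closest with 0.69 over the group means, rank 1083, and NCOA4 lay farthest with −0.62, rank 12488.

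Of the storage genes, FTL was called between pollen and mock at no time and rose late in both conditions. At 6h50 min the probe A_32_P155247, at chr19:49469029-49469088 on hg19, gave 4.26, 4.43 and 4.38 in mock and 4.46, 4.64 and 4.41 in pollen. At 24 h it gave 5.72, 5.46 and 5.22 in mock and 5.69, 5.55 and 5.49 in pollen. All 24 h arrays were above all 6h50 min arrays, and mock and pollen overlapped at both times. Between 6h50 min and 24 h 52.2% of all probes did not overlap in mock and 49.7% in pollen.

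The rise of FTL from 6h50 min to 24 h was 1.11 in mock (SE 0.12, 2.16-fold, limma adjusted p = 8.36e-07) and 1.07 in pollen (SE 0.12, 2.1-fold, limma adjusted p = 1.5e-06). Both other FTL probes were called too, with 0.72 and 0.96 in mock and 1.00 and 0.95 in pollen. Against 2h25 min FTL was higher at 24 h by 1.11 in mock (limma adjusted p = 7.75e-07) and 1.34 in pollen (limma adjusted p = 1.36e-07), and within the slide that holds both times the difference was 1.16 in mock and 1.53 in pollen. At 55 min the pollen arrays, 3.80, 4.05 and 3.98, lay below the mock arrays, 4.38, 4.15 and 4.09, a difference of −0.26 (SE 0.12) with an adjusted p of 0.92 in limma. The FTL probe A_19_P00812340 differed by −0.17 at 55 min, also without overlap, and A_23_P50504 by −0.05 with overlap. Over the settings tried, the difference of the main FTL probe at 55 min lay between −0.68, with the percentile over own probes, and −0.13, with array weights, and it was −0.10 among the arrays of a shared slide, which leaves out the array of the other design.

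FTH1, the heavy chain with the ferroxidase activity, rose late as well. The probe A_33_P3253249, at chr11:61732071-61732130 on hg19, gave 7.34, 7.41 and 7.08 in mock and 7.12, 7.40 and 7.35 in pollen at 6h50 min, against 7.76, 7.69 and 7.72 in mock and 7.74, 7.71 and 7.80 in pollen at 24 h. The 24 h arrays were all above those of 6h50 min, and pollen and mock overlapped at both. Of all probes 52.2% in mock and 49.7% in pollen did not overlap between these times. The rise was 0.45 in mock (SE 0.15, limma adjusted p = 0.0223) and 0.46 in pollen (SE 0.15, limma adjusted p = 0.0209), and the other 2 FTH1 probes were called with 0.65 and 0.74 in mock and 0.71 and 1.02 in pollen. After normexp background correction with quantile normalization the rise was 0.08 in mock and 0.13 in pollen, and in the deposited table it was 0.1 and 0.21, called in neither. The call was lost in limma without mock 24 h replicate 1 (adjusted p = 0.0614) or mock 6h50 min replicate 3 (adjusted p = 0.103), and in pollen without 24 h replicate 3 (adjusted p = 0.0581) or 6h50 min replicate 1 (adjusted p = 0.098). Against 2h25 min it was 0.36 in both conditions and not called, with limma adjusted p of 0.0827 in mock and 0.0942 in pollen. Of the other FTH1 probes, A_32_P342064 had group means of 6.91 at 2h25 min, 6.44 at 6h50 min and 7.18 at 24 h in mock. In pollen these were 6.91, 6.24 and 7.26, so the rise of that probe starts from a low point at 6h50 min.

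**Figure D2:**
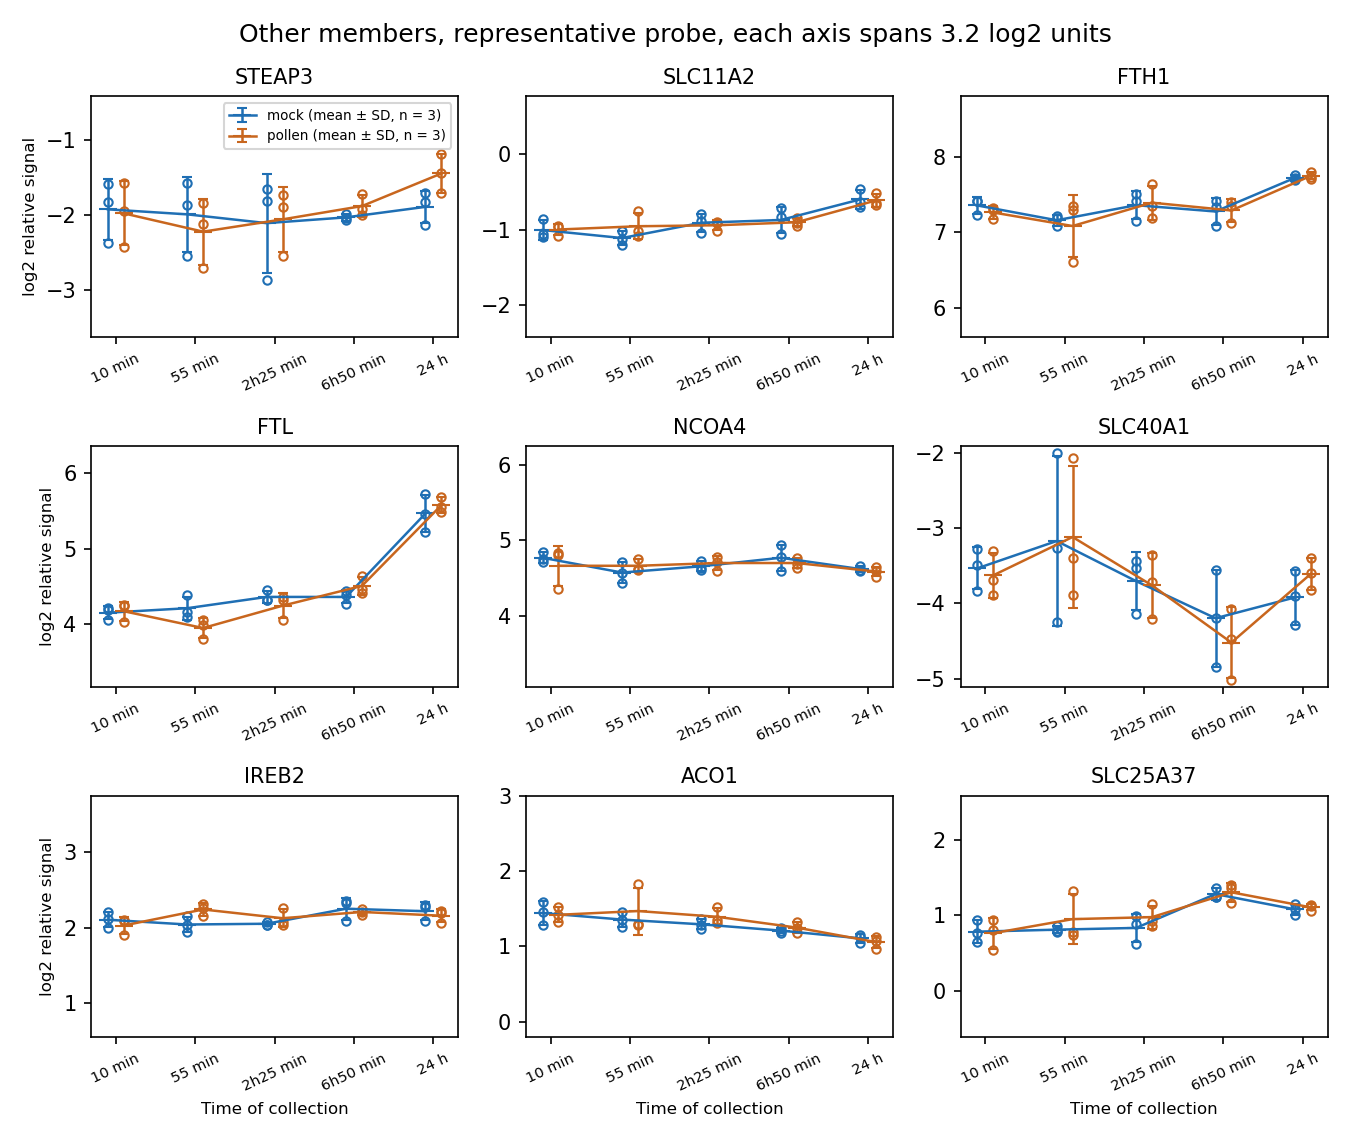
The plots of the 9 other genes have the time on the horizontal axis and the log2 signal relative to the 75th percentile on the vertical axis, each with a span of 3.2 units, a circle per array and the mean ± SD of 3 arrays. FTL stands out by its step from 6h50 min to 24 h in both conditions, IREB2, ACO1 and NCOA4 stay within 0.41 between their lowest and highest group means, and SLC40A1 and STEAP3 scatter widely within groups.

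NCOA4, the receptor that takes ferritin to the lysosome, had the narrowest course, with group means between 4.57 and 4.77. Its brighter probe was called in no comparison, with −0.15 in mock and −0.12 in pollen from 6h50 min to 24 h, but with array weights the value in mock was −0.2 and called lower (limma adjusted p = 0.0475). A dimmer NCOA4 probe, A_33_P3319463, which the files assign to another transcript variant, went up by 0.52 in mock (limma adjusted p = 0.0131) and 0.50 in pollen (limma adjusted p = 0.0188) over the same times. Its group means at 2h25 min, 6h50 min and 24 h were −1.2, −1.81 and −1.29 in mock and −1.41, −1.76 and −1.26 in pollen. This rise thus starts from a low point at 6h50 min. The probes of NCOA4 thus differed in sign and in call.

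SLC11A2, the endosomal iron transporter, rose slightly at the end. It gave −1.06, −0.84 and −0.72 in mock and −0.91, −0.95 and −0.85 in pollen at 6h50 min, and −0.46, −0.64 and −0.70 in mock and −0.51, −0.65 and −0.68 in pollen at 24 h. The rise was 0.28 in mock (SE 0.10, limma adjusted p = 0.039) and 0.29 in pollen (SE 0.10, limma adjusted p = 0.0327). The arrays of both times did not overlap in either condition, narrowly in mock, beside 52.2% of all probes without overlap in mock and 49.7% in pollen. Its second probe, A_24_P381494, differed by −0.22 in mock and −0.04 in pollen and was not called, so the call rests on 1 of 2 probes. Without mock 24 h replicate 1 the rise of SLC11A2 in mock was 0.21 (adjusted p = 0.172), and without pollen 24 h replicate 1 it was 0.24 in pollen (adjusted p = 0.119), both in limma. The call was also lost in limma without replicate 2 of mock at 24 h (adjusted p = 0.0627) and without replicate 1 (adjusted p = 0.214) or 2 (adjusted p = 0.0616) of mock at 6h50 min. In pollen it was lost in limma without replicate 2 at 24 h (adjusted p = 0.0575) and without replicate 1 (adjusted p = 0.0742) or 2 (adjusted p = 0.0991) at 6h50 min.

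STEAP3, the reductase, gave a low signal. Its mean was between −2.22 and −1.45 over the groups, with a pooled SD of 0.39 within groups. At 24 h pollen gave −1.44, −1.71 and −1.19 and mock −1.71, −2.13 and −1.83, a difference of 0.44 (SE 0.31) with an adjusted p of 1 in limma. The second STEAP3 probe, A_24_P200000, fell by 1.37 from 2h25 min to 6h50 min in mock (limma adjusted p = 0.0107) and rose by 1.31 from there to 24 h (limma adjusted p = 0.0108). At 6h50 min it was higher in pollen than in mock by 1.52 (SE 0.39, 2.87-fold, limma adjusted p = 0.141), without overlap and not called, the largest such difference of any of the 18 probes. On mock replicates 1 and 2 at 6h50 min this probe lies in an area of the array that is dimmer than on the other arrays, where 4.03% and 2.67% of their spots lie. No other probe of the 10 genes lies in such an area.

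SLC40A1, the exporter, varied most between replicates. At 55 min mock gave −2, −3.26 and −4.25 and pollen −2.07, −3.39 and −3.89, and its pooled SD within groups was 0.59. Its largest difference between pollen and mock was −0.32 (SE 0.46) at 6h50 min, where the groups overlapped. That difference is smaller than its SE.

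The group means of the iron regulatory proteins lay close together. IREB2, whose own abundance is known to be set by protein decay, had group means between 2.03 and 2.25. At 55 min its pollen arrays, 2.31, 2.15 and 2.26, were at or above its mock arrays, 2.03, 2.15 and 1.94, a difference of 0.20 (SE 0.09, limma adjusted p = 0.92). Its sign turned with the percentile over own probes, which gave −0.21, and with normexp and quantile normalization, which gave −0.16. ACO1, which is also the cytosolic aconitase, had group means between 1.06 and 1.47. It was lowest at 24 h in both conditions, with 1.15, 1.13 and 1.04 in mock and 1.07, 0.97 and 1.13 in pollen. Against 2h25 min the ACO1 value at 24 h differed by −0.34 in pollen (limma adjusted p = 0.0365), which was called, and by −0.19 in mock (limma adjusted p = 0.256), which was not. A difference between those changes was not tested.

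SLC25A37, the mitochondrial importer, was the single member called from 2h25 min to 6h50 min, in mock. Mock gave 0.62, 0.99 and 0.89 at 2h25 min and 1.24, 1.37 and 1.24 at 6h50 min, without overlap, beside 44.8% of all probes without overlap. The rise was 0.45 (SE 0.14, limma adjusted p = 0.0152). In pollen it was 0.33, with 0.86, 1.15 and 0.92 going to 1.16, 1.36 and 1.40, and was not called. The second SLC25A37 probe gave 0.28 in mock and 0.26 in pollen and was not called. The rise in mock was 0.34 without mock 2h25 min replicate 1 (adjusted p = 0.0785) and 0.41 without mock 6h50 min replicate 2 (adjusted p = 0.0561), both in limma, and it was lost there.

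Counted over the 10 genes, each by its brightest probe, limma called 0 between pollen and mock at 10 min, where 0% of all probes were called, 0 at 55 min with 0.00312% of all probes, 0 at 6h50 min with 0.0436% and 0 at 24 h with 0.00312%. At an unadjusted p under 0.05 there were 0 members at 10 min, 2 at 55 min, FTL and IREB2, 1 at 6h50 min, TFRC, and 0 at 24 h. At 2h25 min, where 0.0343% of all probes were called, 0 were called, and nothing is read from it. The median difference of the 10 genes was −0.04 at 10 min, 0.07 at 55 min, 0.04 at 2h25 min, 0 at 6h50 min and 0 at 24 h, beside 0.01, −0.01, −0.03, 0 and 0 over all probes. Pollen and mock did not overlap for 2 genes at 55 min and for 1, TFRC, at 6h50 min, beside 8.67% and 11.7% of all probes. At 2h25 min they did not overlap for TFRC alone, beside 6.97% of all probes. Nothing is read from that, since the 2h25 min arrays chose TFRC. The difference between pollen and mock for the 9 genes other than TFRC was between −0.12 and 0.14 at 2h25 min and between −0.32 and 0.15 at 6h50 min. The change of the pollen effect from 10 min to 55 min was called for 0 genes with 0% of all probes, and from 6h50 min to 24 h for 0 genes with 0% of all probes, while 1 gene had an unadjusted p under 0.05 in each, IREB2 and TFRC.

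**Figure D3:**
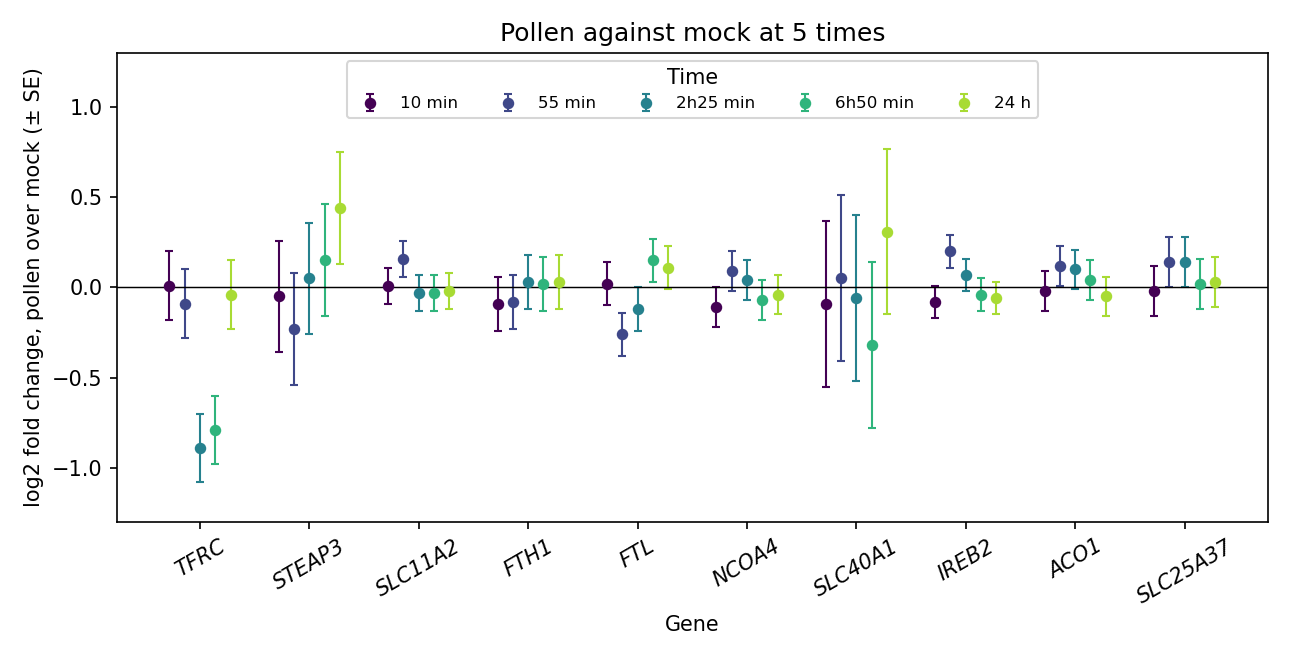
The plot of pollen against mock has the 10 genes on the horizontal axis and the log2 fold change of pollen over mock with its SE on the vertical axis, with 1 point for each of the 5 times. TFRC at 2h25 min (−0.89) and at 6h50 min (−0.79) lies below all other points, of which STEAP3 at 24 h (0.44) and SLC40A1 at 6h50 min (−0.32) lie farthest from 0 in each direction, with SEs of 0.31 and 0.46.

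Across time most calls lay at the last step, where the share of all probes called was also the largest. In mock 0 genes were called from 10 min to 55 min beside 0.187% of all probes, 0 from 55 min to 2h25 min beside 0.0156%, 1 from 2h25 min to 6h50 min beside 32.4% and 4 from 6h50 min to 24 h beside 40.5%. In pollen the counts were 0 beside 0.841%, 0 beside 0.202%, 0 beside 31% and 4 beside 36.2%. In both conditions the 4 were TFRC, FTL, FTH1 and SLC11A2, and all were higher at 24 h, beside 24.7% of all probes called higher in mock and 21.8% in pollen. The count of 4 among 10 is near the share over all probes called in either direction. The arrays of 6h50 min and 24 h did not overlap for 6 genes in mock and 8 in pollen, beside 52.2% and 49.7% of all probes. At an unadjusted p under 0.05 the 9 genes other than TFRC had 0, 0 and 2 in the first 3 steps in mock and 1, 1 and 2 in pollen. TFRC itself was not called in the first step of either condition, and the next 2 steps hold the arrays that chose it. The median change of the 10 genes from 6h50 min to 24 h was 0.21 in mock and 0.36 in pollen, beside 0.14 and 0.11 over all probes. With 2h25 min in place of 6h50 min, FTL and SLC11A2 were called higher at 24 h among the 9 other genes in mock and in pollen. In that comparison 27.4% of all probes were called in mock, 12.5% higher, and 23% in pollen, 11.2% higher.

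**Figure D4:**
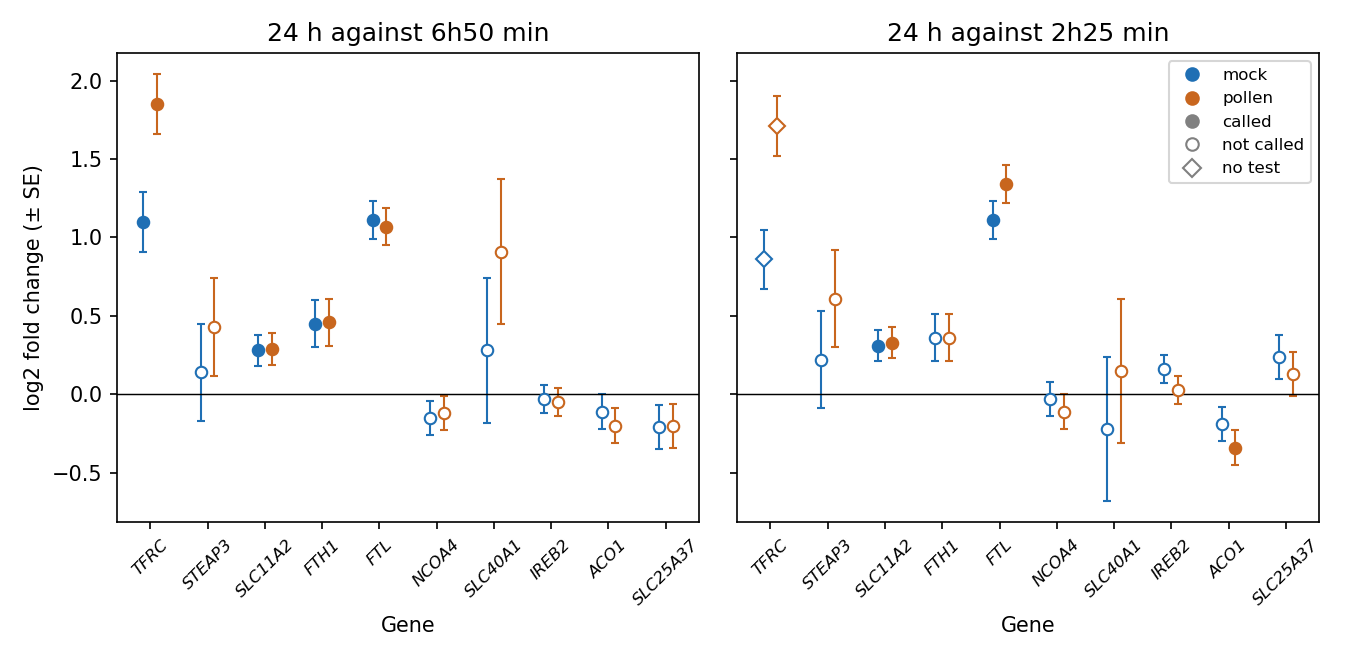
The plots of the late change have the 10 genes on the horizontal axis and the log2 fold change of 24 h over 6h50 min (left) or over 2h25 min (right) with its SE on the vertical axis, in mock and pollen, with filled circles for calls and diamonds for TFRC where it has no test. FTL stands at 1.11 (mock) and 1.07 (pollen) on the left and at 1.11 and 1.34 on the right, and FTH1, at 0.45 and 0.46 on the left, is called there and not on the right.

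The other genes of iron and haem metabolism were taken from a list of 60 genes that includes the 10, of which TF, HEPHL1 and HJV did not pass the filter on dim probes and 47 besides the members were tested. Between pollen and mock 0 of the 47 were called at any of the 5 times. From 6h50 min to 24 h 10 were called higher and 10 lower in mock, and 10 higher and 12 lower in pollen, with a median over the 47 of 0.10 in mock and 0.08 in pollen. Of all probes 24.7% were called higher and 15.9% lower in mock, and 21.8% higher and 14.5% lower in pollen. From 2h25 min to 6h50 min 6 were higher and 9 lower in mock and 6 higher and 10 lower in pollen, beside 9.9% and 22.5% of all probes in mock and 11.1% and 19.9% in pollen.

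LCN2, a secreted protein that binds iron-carrying siderophores, rose most clearly from 6h50 min to 24 h, by 2.04 in mock (limma adjusted p = 5.84e-05) and 2.11 in pollen (limma adjusted p = 5.49e-05). Its group means spanned 3.47, the widest range of the list, followed by STEAP4 with 2.42, HAMP and BMP6 with 2.37 each and SCARA5 with 2.32. The probes of these 4 genes are dim. Group means ran from −5.09 to −2.67 for STEAP4 and from −3.94 to −1.58 for HAMP. They ran from −8.68 to −6.31 for BMP6 and from −7.54 to −5.22 for SCARA5. The 6h50 min arrays were also dimmer, with a 75th percentile of 578.4 to 1151 against 1044 to 2111 at the other times. The part of this dimness in the changes was not tested. SCARA5, a receptor that can take up ferritin, rose by 2.25 in mock and 2.02 in pollen, and HAMP, the hormone hepcidin, by 1.69 and 1.66. Before that, from 2h25 min to 6h50 min, SCARA5 had fallen by 2.29 in mock and by 2.02 in pollen, and HAMP by 1.6 in pollen, so that the late rise starts from a low point at 6h50 min. Set against 2h25 min, the 24 h value of SCARA5 differed by −0.04 in mock and 0 in pollen and that of HAMP by 0.21 and 0.06, none of them called. With normexp and quantile normalization the late rise of SCARA5 was 0.33 in mock and 0.34 in pollen and that of HAMP 1.1 and 1.04, and neither gene was called. Leaving out 1 array also ended these calls, for SCARA5 mock 6h50 min replicate 2, pollen 24 h replicate 2 or pollen 6h50 min replicate 2, and for HAMP mock 24 h replicate 3, pollen 24 h replicate 3 or pollen 6h50 min replicate 1. UROS, an enzyme of haem synthesis, went down late, by −0.99 in mock and −0.75 in pollen. HFE, a partner of the transferrin receptor, also went down, by −0.61 in mock (limma adjusted p = 0.00346) and −0.81 in pollen (limma adjusted p = 0.000419), and so did HMOX1, the haem oxygenase, by −0.73 in pollen. The call of HMOX1 was lost in 7 of 17 settings, with values between −0.83 and −0.53 and limma adjusted p up to 0.209. The 17 include the main fit and the comparison of 24 h with 2h25 min, where HMOX1 gave −0.56 (limma adjusted p = 0.0892). The counts out of 16 settings below also include the main fit. From 2h25 min to 6h50 min ISCU, the scaffold for iron-sulphur clusters, rose by 0.56 in mock and 0.61 in pollen, as did CPOX by 0.42 and 0.49 and the haem transporter SLC48A1 by 0.38 and 0.55, of which the call in mock was lost in 6 of 16 settings. HEPH, a ferroxidase, fell by 1.57 in mock, and ALAS2, the erythroid start of haem synthesis, fell by 1.5 in mock and by 1.51 in pollen. Both probes are dim, with group means of −6.2 to −4.63 for HEPH and −6.93 to −4.82 for ALAS2. With normexp and quantile normalization HEPH gave −0.42 in mock and ALAS2 −0.19 in mock and −0.33 in pollen, none of them called. The call of ALAS2 was lost in 9 of 16 settings in mock and in 8 of 16 in pollen, that of HEPH in 3 of 16, and the falls of SCARA5 and HAMP to 6h50 min in 5 of 16 (SCARA5, mock), 6 of 16 (SCARA5, pollen) and 8 of 16 (HAMP, pollen).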

How the data were processed

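Gene expression was measured on 30 one-colour Agilent arrays. The authors deposited spot intensities, processed by Agilent Feature Extraction 11.0.1.1 with background subtraction and detrending, and a table of log2 values, whose preparation is known from the methods only as limma preprocessing. A comparison with the arrays was possible for 29 columns, of which 6, all of 24 h, matched another array of their own group better than their own, so the deposited intensities were used. With R 4.3.3 and limma 3.58.1, unflagged spots of a probe were averaged, put on the log2 scale and scaled to the 75th percentile of each array over 33873 probes on both designs. A probe was kept where all 3 arrays of some group passed the software's background test. The 32099 probes kept were tested with lmFit and eBayes on 10 group means, with Benjamini-Hochberg adjustment, and a call needed 1.1-fold or more together with an adjusted p below 0.05. All adjusted p-values are from limma. For a gene with several probes, the brightest on average stands for it. The code was tested on simulated data.

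The repetitions were made on different days, each with its own mock. Deviations of mock and pollen arrays with the same number correlated by 0.35, 0.30 and 0.34 at 10 min, 0.52, 0.40 and 0.50 at 2h25 min and 0.49, 0.22 and 0.25 at 24 h, so the numbers pair the arrays there, but not at 55 min (0.19, −0.12 and 0.35) or 6h50 min (0.05, 0.12 and 0.05). The members and lists were chosen with earlier results of these data known. Besides the members, other genes of the iron list were named where called, at most 3 for each direction and comparison, or among the 5 widest ranges of group means. Some genes that the lists hold are not reported here by name. Alternatives were another percentile, normexp with offset 50 and quantile normalization, the deposited table without the 55 min pollen replicate 1 column, array weights, the slide as a random block, no filter, the replicate as a block, the dim area left out, the mean of all probes of a gene and each replicate left out.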

Additional observations from a re-analysis of the deposited data

How the results depend on the processing

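The TFRC difference at 2h25 min lay between −1 and −0.76 when each replicate was left out in turn. These arrays chose the gene, so this range is a description and no support for the difference. The number of members called from 6h50 min to 24 h went from 4 to 2 with the percentile over own probes, with normexp and quantile normalization and with the slide as a random block, in mock and in pollen, and in mock also without the filter on dim probes. The 2 lost were FTH1 and SLC11A2 each time. Leaving out 1 replicate gave 2 to 4 in mock, with 2 without mock 24 h replicate 1, and 2 to 4 in pollen, with 2 without pollen 6h50 min replicate 1. Calls were also gained, all lower from 6h50 min to 24 h, for NCOA4 (−0.2) and SLC25A37 (−0.24) in mock with array weights, for IREB2 (−0.28) in mock with the deposited table and for SLC25A37 (−0.36) in pollen with the mean of all probes. From 2h25 min to 6h50 min the count of 1 in mock became 2 with array weights and with the deposited table and 0 with the slide as a random block, with 0 to 2 over replicates left out, where mock 6h50 min replicate 3 gave 2. The count of 0 in pollen became 2 with array weights, 1 with the deposited table and 1 with the mean of all probes, with 0 to 1 over replicates left out, 1 without pollen 2h25 min replicate 2. From 55 min to 2h25 min in pollen the count of 0 became 1, TFRC, with array weights and with a replicate block over all times, with 0 to 1 over replicates left out, 1 without pollen 55 min replicate 3, which is no test of TFRC since the 2h25 min arrays chose it. From 10 min to 55 min in mock it became 1, TFRC, with array weights. Between pollen and mock at 6h50 min it became 1, TFRC, with array weights (adjusted p = 0.00968), with the deposited table (adjusted p = 0.025) and with the replicate block (adjusted p = 0.0187), although the numbers were not shown to pair the arrays at that time. The replicate block changed no other count of members called. SCARA5 in mock was −0.04 for 24 h against 2h25 min in place of 6h50 min. The cause of these changes was not tested.

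Over all settings the TFRC difference at 6h50 min stayed between −0.89 and −0.72. The late rise of FTL lay between 0.87 and 1.23 in mock and between 1.01 and 1.34 in pollen, called each time. The settings for FTL include the comparison of 24 h with 2h25 min, which gave 1.11 in mock and 1.34 in pollen. The dim probes of SLC40A1 and STEAP3 limit what can be seen of those genes. The 3 arrays per group limit all values.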
